A study of Mus musculus with 12 samples.

Results

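The Max network of transcription factors was followed by RNA-seq in KPC, a cell line of mouse pancreatic cancer. The network was taken as 10 genes chosen by symbol, namely Myc, Mycn, Mycl, Max, Mxd1, Mxd4, Mxi1, Mnt, Mlx and Mga. All 10 had a row among the 17340 genes of the deposited count table. The cells, labelled C57BL/6 and grown in DMEM with serum, formed 4 groups of 3 libraries. One group was the control, labelled both as untreated and as given PBS. The others had received 1 µM of JQ1, I-BET151 or ITF2357 for 48 h. JQ1 and I-BET151 are BET bromodomain inhibitors, which keep BET proteins off acetylated histones, and ITF2357, also called givinostat, inhibits histone deacetylases. The labels do not give the alleles the line carries, the number of clones behind it or the solvent of the compounds. Nor do they tell separate cultures from repeats of 1 culture, so the p-values rest on the spread among these samples alone, and that spread may be technical.

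MYC, MYCN and MYCL proteins bind DNA as pairs with MAX, chiefly at the E-box CACGTG, and raise transcription of genes for growth and ribosome assembly. MXD1, MXD4, MXI1 and MNT compete for MAX and for the same sites, and recruit SIN3 and histone deacetylases to hold transcription down. MLX pairs with the glucose-sensing Mondo proteins and with some MXD proteins, and MGA joins MAX to a Polycomb complex, PRC1.6, that silences germline genes. In pancreatic cancer MYC is a well-known driver, and BET inhibitors are known for lowering MYC transcription in blood cancers.

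Library totals ran from 21 to 31.2 M counts. The epithelial markers Krt8, Krt18 and Cdh1 stood at 831, 840.45 and 780.47 CPM in control cells, where CPM is counts per M library counts scaled with TMM factors, while Epcam stood at 1.75 CPM. Of the markers of other cell types, 3 of 8 for fibroblasts, 3 of 5 for endothelium, 1 of 7 for leukocytes and 1 of 7 for acinar and islet cells had a row, and the others were not analysed here. Their summed levels differed between groups. The fibroblast sum ran from 21.9 to 22.8 CPM in control, 20.8 to 26.5 CPM with JQ1, 6.75 to 7.72 CPM with I-BET151 and 20.2 to 23.1 CPM with ITF2357. Under the near-level ITF2357 sum, Pdgfra was called higher (0.65, log2) and Pdgfrb (-1.73) and Col1a1 (-0.37) lower. The endothelial sum ran from 4.16 to 5.05, 3.70 to 4.36, 0.929 to 1.17 and 1.33 to 1.98 CPM in the same order. Kdr, its largest part in control, had means of 3.67, 2.80, 0.506 and 0.735 CPM and was called lower with I-BET151 and ITF2357. Vwf, at 0.503 CPM in control, was called lower with I-BET151 only, and Pecam1 was not called with any compound. The leukocyte marker Cd68 ran from 4.15 to 4.67 CPM with ITF2357, where it was called lower (-0.70), and from 6.08 to 8.11 CPM in the other libraries. Cela1, the acinar marker, ran from 3.86 to 4.55 CPM in control, 4.43 to 5.83 CPM with JQ1, 0.276 to 0.633 CPM with I-BET151 (called lower) and 5.94 to 7.04 CPM with ITF2357 (called higher). The epithelial sum over 10 genes ran from 4449.9 to 4516 CPM in control, 4794.5 to 4837 CPM with JQ1, 6856 to 6908 CPM with I-BET151 and 6913 to 7064 CPM with ITF2357. Not every epithelial gene moved with that sum. Sox9 (-0.40, log2) and Krt18 (-0.09) were called lower after JQ1, while 4 genes of the list were called higher. For I-BET151, 7 were called higher and only Cftr (-2.67), at 0.604 CPM in control, was called lower. ITF2357 had 8 called higher, and only Sox9 (-0.19) was called lower. The part of these shifts in the results on the network was not tested. Every scaling here is relative to the rest of a library and does not show total RNA per cell, and fewer cells of a type and less RNA per cell cannot be told apart.

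The network split in direction with every compound. A gene was called higher or lower when its edgeR quasi-likelihood p, adjusted by Benjamini-Hochberg over all 17340 genes, was under 0.05. With JQ1, 6 of the 10 genes were called, 3 higher and 3 lower, against 24.8% of all genes called, 12.5% higher and 12.3% lower. With I-BET151, 8 were called, 3 higher and 5 lower, against 63.1% of all genes, 30.5% higher and 32.6% lower. With ITF2357, 6 were called, 1 higher and 5 lower, against 54.0% of all genes, 27.6% higher and 26.4% lower. Against such backgrounds the total of 6 with ITF2357 and the 3 higher with I-BET151 are near what the whole table shows. The 5 lower with each of these compounds lie above those shares, and the 1 higher with ITF2357 lies below. With only 10 genes, these gaps were not tested. The median size of change over the network was 0.20 (log2) with JQ1, 0.54 under I-BET151 and 0.32 with ITF2357, beside 0.147, 0.392 and 0.287 over all genes. These 3 comparisons share the control libraries.

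**Figure D1:**
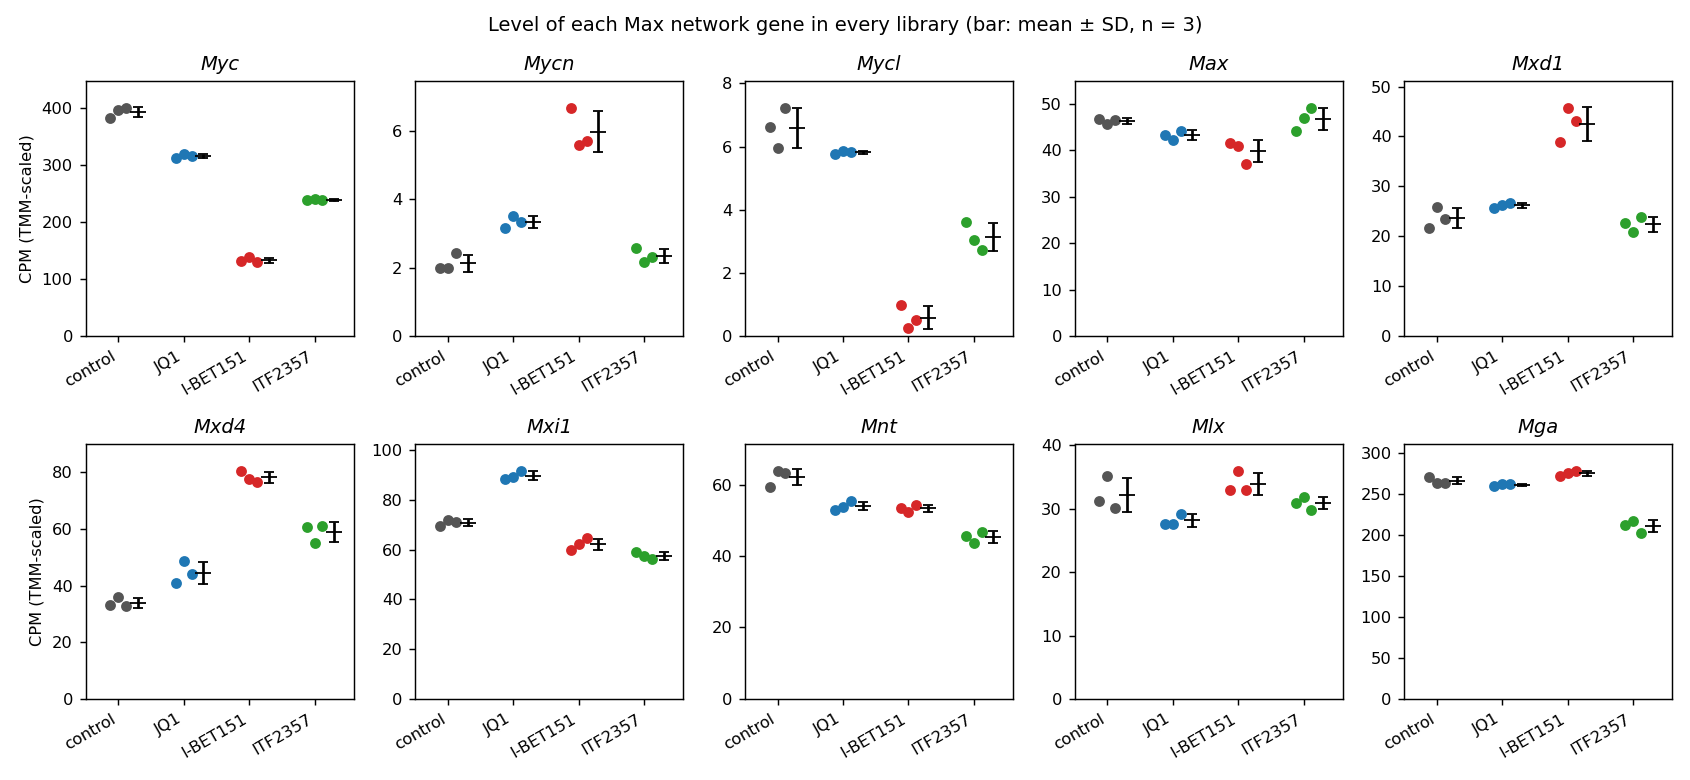
Level of each network gene in every library (vertical axes, CPM scaled with TMM factors, each from 0), by group; points are libraries and the bars give mean ± SD, n = 3. Myc lies in 4 separate bands, Mycl is near 0 with I-BET151, and Mycn, Mxd1 and Mxd4 are highest with I-BET151.

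Myc itself fell with all 3 compounds. The gene lies at chr15:61985391-61990374 on the plus strand (mm10, GENCODE M21) and was by far the most abundant of the 10 per length. Control libraries held 383, 396 and 399 CPM. JQ1 libraries held 312, 319.5 and 315 CPM, ITF2357 libraries 238, 240.0 and 238 CPM, and I-BET151 libraries 132, 138 and 129 CPM. The 4 groups do not overlap, and each step of the order control, JQ1, ITF2357, I-BET151 differed beyond the spread of the libraries. Relative to control, Myc fell by 0.32 ± 0.03 (SE) on the log2 scale with JQ1 (edgeR adjusted p = 1.34e-11), which is 1.245-fold. It fell by 1.56 ± 0.03, or 2.95-fold, with I-BET151 (edgeR adjusted p = 3.02e-31). With ITF2357 it fell by 0.72 ± 0.03, or 1.65-fold (edgeR adjusted p = 5.09e-22). Libraries held between 2718 and 9346 Myc counts, so counting error was small beside these differences.

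Mycn, the paralog best known from neuroblastoma, rose with both BET inhibitors, at a far lower level. The gene is at chr12:12936093-12941914 on the minus strand. Control libraries held 1.99, 1.99 and 2.42 CPM, JQ1 libraries 3.17, 3.52 and 3.34 CPM, I-BET151 libraries 6.65, 5.57 and 5.70 CPM, and ITF2357 libraries 2.57, 2.16 and 2.31 CPM. Every library with a BET inhibitor lay above every control library, whereas ITF2357 and control libraries overlapped. Mycn rose by 0.64 ± 0.17 (SE) on the log2 scale with JQ1 (edgeR adjusted p = 0.00438) and by 1.48 ± 0.16 with I-BET151 (edgeR adjusted p = 7.56e-10). With ITF2357 the difference was 0.14, with a 95% interval from -0.21 to 0.50 (edgeR adjusted p = 0.515). The 3 control libraries held 149 Mycn counts together, with an exact 95% Poisson interval from 126 to 175 that covers counting error only.

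Mycl, the member first found in small cell lung cancer, fell to near 0 with I-BET151. It lies at chr4:122995652-123002485 on the plus strand. Control libraries held 6.61, 5.96 and 7.21 CPM, JQ1 libraries 5.78, 5.87 and 5.82 CPM, ITF2357 libraries 3.61, 3.06 and 2.74 CPM, and I-BET151 libraries 0.971, 0.253 and 0.506 CPM. JQ1 libraries lay just under the control libraries, ITF2357 libraries lay below both, and I-BET151 libraries lay lowest. Mycl fell by 3.54 ± 0.23 (SE) on the log2 scale with I-BET151, or 11.6-fold (edgeR adjusted p = 2.59e-15), and by 1.07 ± 0.16, or 2.10-fold, with ITF2357 (edgeR adjusted p = 9.91e-07). JQ1 gave a difference of -0.18 with a 95% interval from -0.49 to 0.13 (edgeR adjusted p = 0.448). The I-BET151 libraries held 20, 6 and 11 Mycl counts. Their sum of 37 has an exact 95% Poisson interval from 26.1 to 51.0, for counting error only, and leaving out 1 library at a time gave -4.12 to -3.16.

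Per length, Myc supplied nearly all of the family's RNA in every group. In RPKM, which is CPM per kilobase of the deposited gene length, Myc stood at 145 in control, 116 with JQ1, 49.0 under I-BET151 and 87.9 with ITF2357. Mycn stood at 0.648, 1.01, 1.81 and 0.713 RPKM and Mycl at 1.63, 1.44, 0.143 and 0.777 RPKM in the same order. Myc therefore made up 98.4% of the summed family level in control and 96.2% with I-BET151. The share of Mycn went from 0.440% in control to 3.56% with I-BET151. In control cells Mycl stood above Mycn per length, and with I-BET151 Mycn stood above Mycl.

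Pvt1, a long noncoding RNA gene that begins 47612 bases past the end of Myc and is often amplified with it in cancer, fell with the same compounds. It spans chr15:62037986-62378096 on the plus strand. Control libraries held 63.8, 61.4 and 60.7 CPM, JQ1 libraries 53.9, 52.1 and 52.2 CPM, I-BET151 libraries 27.3, 30.1 and 29.0 CPM, and ITF2357 libraries 34.05, 34.5 and 36.7 CPM. The groups do not overlap, and they stand in the order seen for Myc. Pvt1 fell by 0.23 ± 0.05 (SE) on the log2 scale with JQ1, by 1.10 ± 0.05 with I-BET151 and by 0.82 ± 0.05 with ITF2357, at edgeR adjusted p of 0.000218, 1.29e-19 and 2.13e-16.

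The genes whose pattern lay nearest to that of Myc were sought among the 11270 genes whose mean log2 CPM was at least 2. Nearness was the root mean square difference in log2 CPM relative to the control mean, over the 9 treated libraries. Inhba, which encodes the activin beta A subunit, came first at 0.0721. Fhdc1, Mars (methionyl-tRNA synthetase), the noncoding Snhg4 and Qtrt2 (a tRNA modification enzyme) followed at 0.116, 0.121, 0.126 and 0.129. Inhba stood at -0.27 (JQ1), -1.53 (I-BET151) and -0.64 (ITF2357), beside -0.32, -1.56 and -0.72 for Myc. The same 5 genes came first with library totals. As nearness compares genes within a library, the scaling nearly cancels, so this agreement is no check of the order. None of the other 9 network genes was near, the closest being Mnt at 0.795.

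Max, the shared partner, changed little. It lies at chr12:76937269-76962201 on the minus strand. Control libraries held 46.7, 45.5 and 46.4 CPM, JQ1 libraries 43.3, 42.2 and 44.2 CPM, I-BET151 libraries 41.5, 40.9 and 37.1 CPM, and ITF2357 libraries 44.2, 46.8 and 49.0 CPM. I-BET151 libraries lay below all control libraries, and ITF2357 libraries lay on both sides of them. Max fell by 0.22 ± 0.05 (SE) on the log2 scale with I-BET151, or 1.16-fold (edgeR adjusted p = 0.000507), and by 0.38, or 1.30-fold, with library totals. JQ1 gave -0.10 with a 95% interval from -0.20 to 0.01 (edgeR adjusted p = 0.188). ITF2357 gave 0.01 with a 95% interval from -0.09 to 0.11, and this difference turns to -0.01 with library totals and -0.02 with upper quartile scaling. In the order ITF2357, control, JQ1, I-BET151, only JQ1 and I-BET151 differed as neighbours (edgeR adjusted p = 0.0435). That call is lost with DESeq2 (DESeq2 adjusted p = 0.0704), with the replicate block and without JQ1 replicate 1 or 3 or I-BET151 replicate 3.

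The network is known for binding its own members' promoters, so the E-box was looked up there. RefSeq (GRCm38.p6) gave promoter windows, 250 bases before to 50 after the start site, for 9 of the 10 genes in 11 entries. CACGTG, which reads the same on both strands, was in the windows of Max, Mlx, Mnt and Mxd4, 4 of the 9. It was in 7.15% of all 32851 windows of 300 bases and, counted by gene as for the network, in any window of 11.5% of the table's genes with such a window. The letters were in none of the windows of Mga, Mxd1, Mxi1, Mycl or Mycn, which says only that they are not in these windows. The 4 stretches that hold the motif are shown 5′ to 3′ on the strand of the gene, with the motif in capitals. They lie at chr12:76962226-76962271 (Max, minus), chr11:101087230-101087275 (Mlx, plus), chr11:74830781-74830826 (Mnt, plus) and chr5:34187904-34187949 (Mxd4, minus). The motif's first base is at -3, -40, -123 and -219 from the start site of Max, Mlx, Mnt and Mxd4.
Max: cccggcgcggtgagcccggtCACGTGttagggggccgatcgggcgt
Mlx: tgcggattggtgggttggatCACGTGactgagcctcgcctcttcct
Mnt: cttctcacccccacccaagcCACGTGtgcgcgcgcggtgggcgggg
Mxd4: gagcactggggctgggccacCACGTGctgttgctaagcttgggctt
Beyond the motif the flanks differ, and the 4 genes did not move as one. With I-BET151, Mxd4 rose, Max and Mnt fell, and Mlx did not pass the test. No binding was measured here, so a match is a description of sequence.

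Among the repressors that compete for MAX, Mxd4 was the only one called higher with all 3 compounds. It encodes MAD4, found in differentiating cells, and lies at chr5:34173883-34187720 on the minus strand. Control libraries held 33.1, 35.9 and 32.8 CPM, JQ1 libraries 40.9, 48.5 and 43.99 CPM, ITF2357 libraries 60.6, 54.9 and 61.2 CPM, and I-BET151 libraries 80.4, 77.8 and 76.4 CPM. No groups overlap, and each step from control through JQ1 and ITF2357 to I-BET151 was called. Mxd4 rose by 0.38 ± 0.06 (SE) on the log2 scale with JQ1 (edgeR adjusted p = 2.68e-06), by 0.80 ± 0.05 with ITF2357 (edgeR adjusted p = 1.75e-14) and by 1.20 ± 0.05, or 2.30-fold, with I-BET151 (edgeR adjusted p = 1.07e-19). An antisense gene, Gm42846, shares 514 exonic bases with it on the other strand. Since no source used here states the strand setting of the counting, reads of the pair may be mixed.

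Mxd1, which encodes MAD1, a repressor induced as cells stop dividing, rose with I-BET151. The gene is at chr6:86647042-86669161 on the minus strand. Control libraries held 21.7, 25.8 and 23.5 CPM, JQ1 libraries 25.7, 26.2 and 26.7 CPM, I-BET151 libraries 38.9, 45.6 and 43.1 CPM, and ITF2357 libraries 22.6, 20.8 and 23.8 CPM. I-BET151 libraries stood apart from all others, and both JQ1 and ITF2357 libraries overlapped the control. The rise with I-BET151 was 0.85 ± 0.07 (SE) on the log2 scale, or 1.80-fold (edgeR adjusted p = 3.84e-13). With JQ1 the difference was 0.15, with a 95% interval from 0.00 to 0.29 (edgeR adjusted p = 0.136), and it passes at 0.0477 without control replicate 2. With ITF2357 it was -0.08, with a 95% interval from -0.22 to 0.07 (edgeR adjusted p = 0.383).

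Mxi1, the MAD2 repressor, rose with JQ1 and fell with the other compounds. It lies at chr19:53310518-53375810 on the plus strand. Control libraries held 69.5, 72.1 and 71.0 CPM, JQ1 libraries 88.3, 89.4 and 91.7 CPM, I-BET151 libraries 59.9, 62.1 and 64.5 CPM, and ITF2357 libraries 59.2, 57.3 and 56.2 CPM. JQ1 libraries lay above every control library, and all libraries of the other compounds lay below. The change was a rise of 0.34 ± 0.04 (SE) on the log2 scale with JQ1 (edgeR adjusted p = 1.68e-08). Mxi1 fell by 0.19 ± 0.04 with I-BET151 (edgeR adjusted p = 0.000141), or by 0.35 with library totals, and fell by 0.30 ± 0.04 with ITF2357 (edgeR adjusted p = 7.9e-08). RefSeq lists 3 start sites for Mxi1, which these gene counts do not separate, and Gm10197 on the other strand shares 194 exonic bases with it.

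Mnt, the repressor found in nearly all cells whether or not they divide, fell with all 3 compounds. It lies at chr11:74830920-74845725 on the plus strand. Control libraries held 59.5, 63.8 and 63.2 CPM, JQ1 libraries 52.9, 53.8 and 55.3 CPM, I-BET151 libraries 53.4, 52.4 and 54.4 CPM, and ITF2357 libraries 45.7, 43.6 and 46.7 CPM. Every treated library lay below every control library, and JQ1 and I-BET151 libraries overlapped. Mnt fell by 0.20 ± 0.04 (SE) on the log2 scale with JQ1, by 0.22 ± 0.04 with I-BET151 and by 0.45 ± 0.04 with ITF2357, with edgeR adjusted p of 0.000565, 6.21e-05 and 9.49e-11. With library totals the I-BET151 value was -0.38. Mnt and Myc were the members called lower with each of the 3 compounds.

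Mlx, the partner of the Mondo proteins, showed small differences from control. It lies at chr11:101087277-101092207 on the plus strand. Control libraries held 31.2, 35.2 and 30.1 CPM, JQ1 libraries 27.6, 27.6 and 29.3 CPM, I-BET151 libraries 32.96, 35.96 and 32.96 CPM, and ITF2357 libraries 31.0, 31.9 and 29.9 CPM. JQ1 libraries lay below all control libraries, and the other compounds overlapped the control. Mlx fell by 0.19 ± 0.06 (SE) on the log2 scale with JQ1 (edgeR adjusted p = 0.0189). That call rests on single libraries: dropping control replicate 2 gave -0.12 with an edgeR adjusted p = 0.205, and dropping JQ1 replicate 1 or 2 gave edgeR adjusted p of 0.0776 and 0.0635. I-BET151 gave 0.08 with a 95% interval from -0.04 to 0.20, which passes at 0.0498 without control replicate 2 and turns to -0.08 with library totals. ITF2357 gave -0.06 with a 95% interval from -0.18 to 0.06. No neighbours in the order I-BET151, control, ITF2357, JQ1 differed. Psmc3ip, on the other strand, shares 385 exonic bases with Mlx and stood at 3.57 to 4.20 CPM in control and 2.14 to 2.32 CPM with I-BET151.

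Mga, the largest protein of the network and the scaffold of PRC1.6, fell with ITF2357. It lies at chr2:119897228-119969581 on the plus strand. Control libraries held 271, 263 and 263 CPM, JQ1 libraries 259.9, 261 and 262 CPM, I-BET151 libraries 272, 275 and 278 CPM, and ITF2357 libraries 212, 217 and 203 CPM. ITF2357 libraries stood apart below all others, while the other groups lay close together. Mga fell by 0.34 ± 0.03 (SE) on the log2 scale with ITF2357, or 1.26-fold (edgeR adjusted p = 7.23e-13). JQ1 gave -0.03 with a 95% interval from -0.08 to 0.03. I-BET151 gave 0.05 with a 95% interval from -0.01 to 0.10 (edgeR adjusted p = 0.111). This last value passes at 0.0428 when only these groups are fitted, and library totals turn it to -0.11 (edgeR adjusted p = 0.000361), so its direction depends on the scaling.

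**Figure D2:**
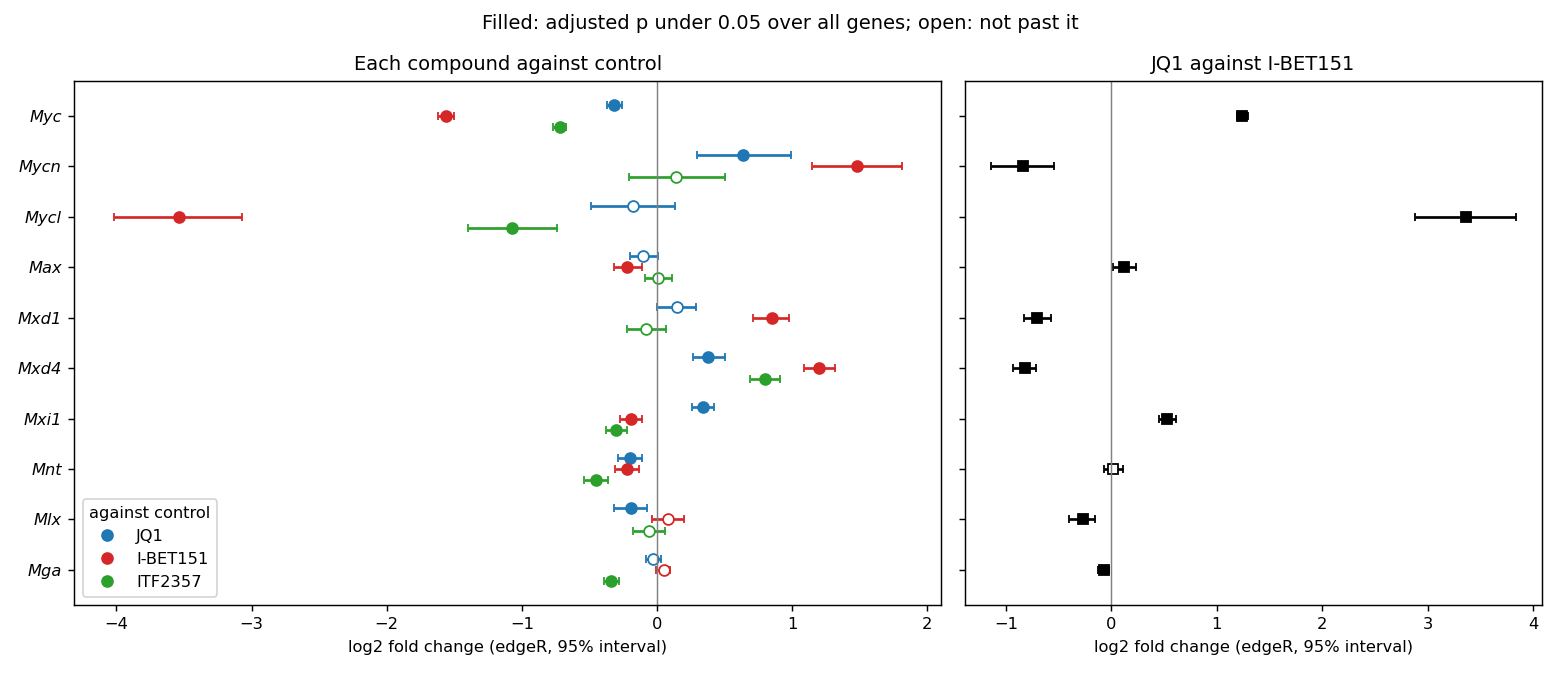
Fitted log2 fold change of each network gene (horizontal axes) with its 95% interval, for each compound against control at left and for JQ1 against I-BET151 at right; filled symbols passed an edgeR adjusted p under 0.05. Myc lies left of 0 with every compound, at -0.32, -1.56 and -0.72, and Mxd4 lies right of 0, at 0.38, 1.20 and 0.80.

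The ratio of the activating to the competing genes was lower in every treated library than in any control library. The summed RPKM of Myc, Mycn and Mycl was 147 ± 3.26 (SD, n = 3) in control, 119 ± 1.44 with JQ1, 50.9 ± 1.597 under I-BET151 and 89.4 ± 0.430 with ITF2357. That of Mxd1, Mxd4, Mxi1 and Mnt was 31.2 ± 1.121, 33.8 ± 0.827, 35.9 ± 0.526 and 28.3 ± 0.958 RPKM in the same order. The former divided by the latter, which does not depend on library scaling, was 4.77, 4.59 and 4.78 in the control libraries and 3.57, 3.52 and 3.45 with JQ1. It was 1.44, 1.46 and 1.36 with I-BET151 and 3.09, 3.29 and 3.08 with ITF2357. The 4 groups do not overlap, and means were 4.71, 3.51, 1.42 and 3.15. An exact two-sided permutation test gave p = 0.1 for each of the 6 pairs of groups, the smallest that 3 libraries against 3 allow.

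The makeup of the competing set also differed between groups. Mnt made up 43.1% of it in control, 34.6% with JQ1, 32.2% under I-BET151 and 34.6% with ITF2357. Mxd4 made up 12.8%, 15.5%, 25.7% and 24.5%, and Mxi1 33.3%, 38.96%, 25.4% and 29.8%. Mxd1 went from 10.7% in control to 16.7% with I-BET151. Myc family RNA per Max RNA was 11.4 ± 0.364 (SD, n = 3) in control, 9.87 ± 0.317 with JQ1, 4.61 ± 0.194 under I-BET151 and 6.90 ± 0.373 with ITF2357. These are RNA levels, and no protein was measured.

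**Figure D3:**
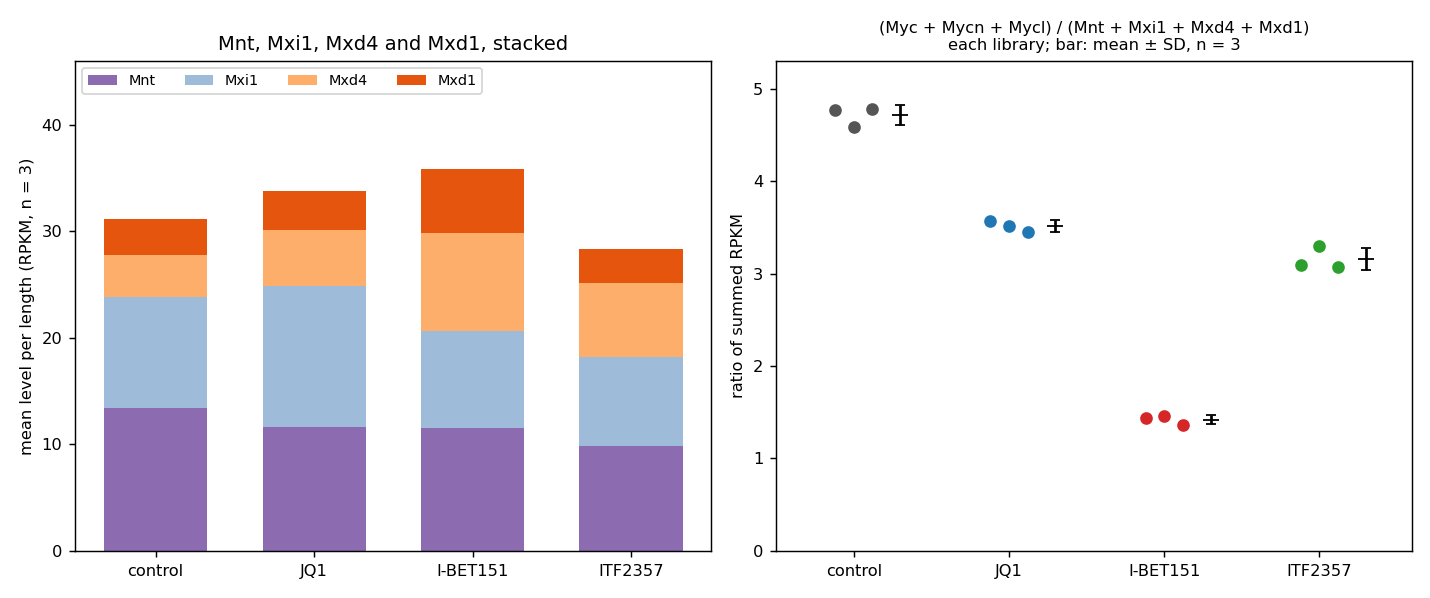
Left, mean RPKM of Mnt, Mxi1, Mxd4 and Mxd1 stacked by group (n = 3); right, the ratio of summed Myc family RPKM to that stack in each library, with mean ± SD. The stack stays between 28.3 and 35.9 RPKM while the ratio goes from 4.71 in control to 1.42 with I-BET151.

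JQ1 and I-BET151 differ in their acetyl-lysine mimic, a triazole fused to a diazepine in JQ1 and a dimethylisoxazole on a quinoline core in I-BET151. They were compared directly at the matched dose and time as the only pair of BET inhibitors. Of the 10 genes, 9 were called between them, 4 higher with JQ1 and 5 lower, against 60.4% of all genes, 30.7% higher and 29.8% lower. Myc was 1.24 higher with JQ1 on the log2 scale (95% interval from 1.19 to 1.30) and Mycl 3.36 higher (2.88 to 3.84), with edgeR adjusted p of 3.32e-28 and 1.69e-14. Mycn was lower with JQ1, at -0.84 (-1.14 to -0.54, edgeR adjusted p = 9.6e-06).

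Mxd4 and Mxd1 were also lower with JQ1, at -0.82 (-0.93 to -0.71) and -0.70 (-0.83 to -0.57). Mxi1 was higher, at 0.53 (0.45 to 0.61, edgeR adjusted p = 9.56e-14). For the remaining genes the difference was small. Mlx gave -0.27 (-0.40 to -0.15), a call lost with library totals (-0.12, edgeR adjusted p = 0.0976). Max gave 0.12 (0.02 to 0.23, edgeR adjusted p = 0.0435), a call lost without JQ1 replicate 1 or 3, without I-BET151 replicate 3 (0.07, edgeR adjusted p = 0.313) and with DESeq2 (DESeq2 adjusted p = 0.0704). With library totals Max stood at 0.28 (edgeR adjusted p = 2.84e-05). Mga gave -0.07 (-0.13 to -0.02, edgeR adjusted p = 0.0152), which library totals turn to 0.08 (edgeR adjusted p = 0.009), so no direction can be given. Mnt gave 0.02 (-0.07 to 0.11, edgeR adjusted p = 0.763), and library totals put it at 0.17 (edgeR adjusted p = 0.00121). The interval shows that any Mnt difference is small under TMM scaling, not that the compounds act alike on it.

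ITF2357 was also set against each BET inhibitor. All 10 genes were called between ITF2357 and I-BET151, against 62.8% of all genes, and 8 between ITF2357 and JQ1, against 48.6%. Relative to I-BET151, ITF2357 libraries had more Myc (0.84), Mycl (2.47) and Max (0.23) and less Mycn (-1.34), Mxd1 (-0.92), Mxd4 (-0.41) and Mga (-0.39), as log2 differences. With library totals Max, Mxd4 and Mga stood at 0.37, -0.27 and -0.25. Mxi1 (-0.11) and Mlx (-0.14) also passed, but with library totals Mxi1 stood at 0.02 and Mlx at -0.0027. Without I-BET151 replicate 3 or ITF2357 replicate 3 the Mxi1 call is lost. That of Mlx is lost without JQ1 replicate 2, I-BET151 replicate 2 (-0.09) or ITF2357 replicate 1 or 3. Mnt, at -0.23, stood at -0.10 with library totals and no longer passed. Relative to JQ1, ITF2357 libraries had less Myc (-0.40), Mycn (-0.50), Mycl (-0.89), Mxi1 (-0.64), Mga (-0.31), Mnt (-0.25) and Mxd1 (-0.22) and more Mxd4 (0.41). Max (0.11) and Mlx (0.13) did not pass, with edgeR adjusted p of 0.0698 and 0.0681, but Max passed without I-BET151 replicate 3 or ITF2357 replicate 1 and Mlx without ITF2357 replicate 3.

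Another 5 genes with a row were looked at, namely Pvt1, the noncoding neighbour of Myc, and further network genes. Of them 1 was called with JQ1, 3 under I-BET151 and 2 under ITF2357, against 24.8%, 63.1% and 54.0% of all genes. The call with JQ1 was Pvt1, which was also called with both other compounds. Mxd3, a repressor tied to dividing cells, rose by 1.77 ± 0.34 (SE) on the log2 scale with ITF2357, from 8 to 14 counts a library in control to 32 to 54 (edgeR adjusted p = 3.14e-05). Mlxip (MondoA) rose by 0.22 ± 0.04 and Mlxipl (ChREBP), near 1 CPM, by 0.75 ± 0.30 with I-BET151, and neither passed with library totals. Leaving out control replicate 1 or 2 or I-BET151 replicate 1 or 3 left 1 of these 2 calls. Bmyc had group means from 1.66 to 1.92 CPM, and no difference from control passed.

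Genes that MYC is known to induce were mostly lower with both BET inhibitors. The list, with ribosome assembly, nucleotide and one-carbon genes, held 40 measured genes. Like the other lists, it was chosen with earlier results of these data known. With JQ1, 27 were called lower and 2 higher, with a median of -0.24 (log2). With I-BET151, 35 were lower and 3 higher, with a median of -0.67. With ITF2357, 17 were lower and 9 higher, with a median of -0.05. The medians over all genes were 0.003, -0.03 and -0.01, and 12.3%, 32.6% and 26.4% of all genes were called lower and 12.5%, 30.5% and 27.6% higher. With library totals no gene of the list was called higher and 37 were lower with I-BET151.

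Shmt2, the mitochondrial one-carbon enzyme, fell by the most in that list with each compound. It went from 147 CPM in control to 98.2 with JQ1, 27.8 under I-BET151 and 58.7 with ITF2357. Srm, spermidine synthase, fell by 0.49 with JQ1 and by 1.31 with I-BET151 on the log2 scale, and Ifrd2 fell by 0.46 and by 1.32. Tfrc, the transferrin receptor, went against the list and rose by 0.29 with JQ1, 0.21 under I-BET151 and 1.04 with ITF2357. The rise of Tfrc with I-BET151 did not pass with library totals. Ldha, lactate dehydrogenase A, rose by 0.29 with JQ1 and fell by 0.59 with I-BET151. Odc1, the rate-limiting enzyme of polyamine synthesis, fell by 0.36 with JQ1 and by 0.41 with I-BET151 and rose by 0.45 with ITF2357. Phb rose by 0.48 with ITF2357, and the nucleolar methyltransferase gene Nop2 fell by 0.50.

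Genes that MYC is known to hold down were called in both directions. Of 18 measured, 7 were called higher and 3 lower with JQ1 (median log2 fold change 0.11), 5 higher and 11 lower with I-BET151 (median -0.60), and 6 higher and 9 lower with ITF2357 (median -0.04). The shares over all genes were 12.5% higher and 12.3% lower, 30.5% and 32.6%, and 27.6% and 26.4%, so the counts of higher genes with I-BET151 and ITF2357 are near those of the whole table. Clu, the secreted chaperone clusterin, rose with all 3, from 2285 CPM in control to 3016 with JQ1, 4851 under I-BET151 and 5289.9 with ITF2357. Thbs1, thrombospondin, rose by 0.67 with JQ1 and by 0.51 with ITF2357 and fell by 0.86 with I-BET151. Gas1, a growth arrest gene, fell by 2.18 with I-BET151 and by 2.26 with ITF2357, at about 1 CPM in both. Cdkn1a, which encodes the cell cycle inhibitor p21, fell by 1.02 with ITF2357, and Cdkn2c, another such inhibitor, rose by 0.86. Ndrg2 rose by 0.43 with JQ1 and by 0.32 with ITF2357 and fell by 1.24 with I-BET151. Col1a1 and Pdgfrb of this list are also among the fibroblast markers whose summed level was lower with I-BET151.

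**Figure D4:**
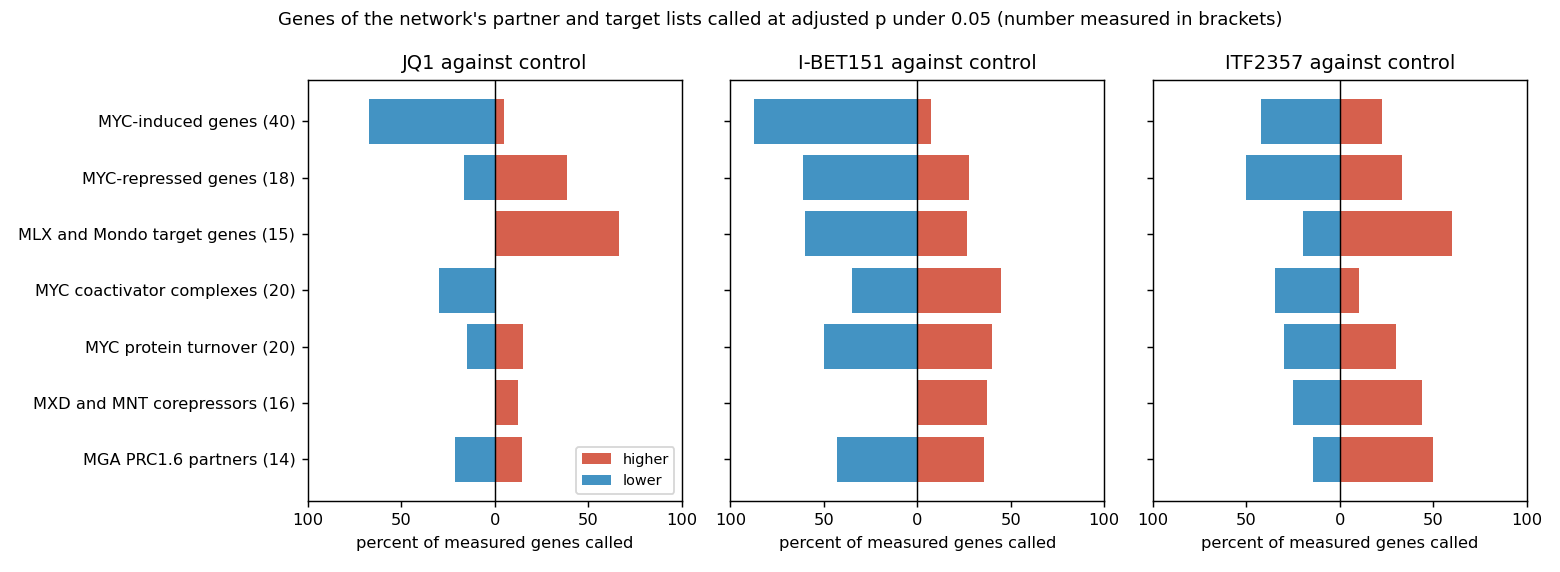
Percent of measured genes called higher (right of 0) and lower (left of 0) at an edgeR adjusted p under 0.05, for 7 lists of partners and targets of the network and each compound against control; the number measured is in brackets. The bar of MYC-induced genes points left with both BET inhibitors, 27 and 35 of 40, and that of MLX and Mondo targets points right with JQ1, 10 of 15.

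Targets of the MLX and Mondo branch, which answer to glucose, were mostly higher with JQ1 and ITF2357. Of 15 measured, 10 were called higher and 5 were not called with JQ1, 4 higher and 9 lower with I-BET151, and 9 higher and 3 lower with ITF2357. Over all genes 12.5%, 30.5% and 27.6% were called higher and 12.3%, 32.6% and 26.4% lower, and the 4 higher with I-BET151 are near that share. The medians were 0.21, -0.14 and 0.21 on the log2 scale. Txnip, which limits glucose uptake and is the best-known target of this branch, held 209, 206 and 215 CPM in the control libraries. It held 293, 295 and 293 CPM with JQ1, 411, 404 and 417 CPM with I-BET151, and 242, 244 and 241 CPM with ITF2357. No groups overlap, and I-BET151, with the lowest median of the list, had the highest Txnip. Txnip rose by 0.48 ± 0.03 (SE) on the log2 scale with JQ1, by 0.97 ± 0.03 with I-BET151 and by 0.21 ± 0.03 with ITF2357, with edgeR adjusted p of 3.43e-16, 1.27e-26 and 1.57e-08. Arrdc4, the arrestin-domain relative of Txnip, fell by 1.5 with I-BET151, from 1.19 to 0.415 CPM. Among lipid genes, Elovl6 and Scd1 fell by 0.81 and 0.37 with I-BET151 and rose by 0.35 and 0.44 with ITF2357, while Acly rose by 0.26 with I-BET151. Pdk4, a brake on pyruvate oxidation, rose by 1.29 with JQ1 and by 2.02 with ITF2357 from 0.585 CPM, and Pklr, the liver-type pyruvate kinase, rose by 0.84 with ITF2357 and fell by 0.62 with I-BET151.

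Cofactors of MYC were called in part. Of 20 coactivator genes, 6 were called lower and 14 were not called with JQ1 (median -0.07), 9 higher and 7 lower with I-BET151 (median 0.07), and 2 higher and 7 lower with ITF2357 (median -0.05). With 32.6% of all genes lower in I-BET151 and 26.4% in ITF2357, both counts of 7 are near the background. The other shares of all genes were 12.5% higher and 12.3% lower with JQ1, and 30.5% and 27.6% higher with I-BET151 and ITF2357. With library totals the I-BET151 counts were 6 higher and 10 lower, and the 7 with ITF2357 become 4 without control replicate 2 or ITF2357 replicate 2. Upper quartile scaling gave 2 higher and 4 lower with JQ1, so the lack of higher genes there depends on the scaling. Ep400, an ATPase of the TIP60 complex, stood at 260 CPM in control, 242 with JQ1 and 285 with I-BET151. The ATPase genes Ruvbl1 and Ruvbl2, of the TIP60 and INO80 complexes, fell with both BET inhibitors. Ruvbl1 fell by 0.28 and 1.05 on the log2 scale with JQ1 and I-BET151. Ruvbl2, which is also in the list of MYC-induced genes, fell from 67.7 CPM in control to 55.8 with JQ1, 28.4 under I-BET151 and 50.4 with ITF2357. Kat2a, the GCN5 acetyltransferase, fell by 0.70 with I-BET151, whereas Paf1 rose by 0.52 and Kat5 by 0.40.

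Of 20 genes that control the stability of MYC protein, 3 were called higher and 3 lower with JQ1 (median -0.01), 8 and 10 with I-BET151 (median -0.12), and 6 and 6 with ITF2357 (median -0.00). Beside 12.5% and 12.3%, 30.5% and 32.6%, and 27.6% and 26.4% of all genes, the counts with JQ1 and ITF2357 are near the background. With library totals the I-BET151 counts were 5 higher and 13 lower, and without control replicate 1 only 1 was higher with JQ1. The list holds mitotic kinases that are known to stabilise MYC or MYCN. Of these, Aurka, Aurkb and Plk1 fell by 1.87, 1.43 and 1.40 with I-BET151, and rose by 0.76, 1.42 and 1.34 with ITF2357. Usp36, the nucleolar deubiquitinase of MYC, fell by 0.46 with JQ1, by 1.09 with I-BET151 and by 0.85 with ITF2357. Gsk3b, the kinase that marks MYC for degradation, rose by 0.59 with I-BET151 and by 0.07 with JQ1.

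Of 16 corepressor genes through which MXD and MNT proteins act, 2 were called higher and 14 were not called with JQ1 (median 0.01), 6 were higher and 10 not called with I-BET151 (median 0.06), and 7 were higher and 4 lower with ITF2357 (median -0.00). Of all genes, 12.5% were called higher and 12.3% lower with JQ1, 30.5% and 32.6% with I-BET151, and 27.6% and 26.4% with ITF2357. The counts of higher genes with JQ1 and I-BET151 are near those shares. With JQ1 and with I-BET151, 0 genes were called lower, which is under the share of all genes, most clearly with I-BET151. With library totals the I-BET151 counts were 2 higher and 7 lower, so the direction of that list depends on the scaling. For JQ1, 1 gene was called lower with library totals or with only the groups compared fitted. Arid4b, a SIN3 complex subunit, rose by 0.14 with JQ1 and by 0.60 with I-BET151. Hdac1, a target of ITF2357, rose by 0.38 with that compound, and Ncor1 fell by 0.22.

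Around Mga, 14 PRC1.6 partners were measured. With JQ1, 2 were called higher and 3 lower (median -0.05), but these calls rest on single libraries. Leaving out any 1 control, JQ1 or I-BET151 library left at most 1 higher, leaving out control replicate 3 or JQ1 replicate 1 left 1 lower, and leaving out control replicate 2 or JQ1 replicate 3 left no gene lower. With I-BET151, 5 were higher and 6 lower (median -0.01), 3 were higher without I-BET151 replicate 2, and 3 were higher and 9 lower with library totals. With ITF2357, 7 were higher and 2 lower (median 0.03), 1 lower without control replicate 3. All genes gave 12.5% higher and 12.3% lower with JQ1, 30.5% and 32.6% with I-BET151, and 27.6% and 26.4% with ITF2357, and the I-BET151 counts of this list are near those. L3mbtl2, a reader subunit of the complex, fell by 0.21 with JQ1 and by 0.61 with I-BET151 and rose by 0.39 with ITF2357. Pcgf6, which defines PRC1.6, fell by 0.56 with ITF2357, and E2f6 fell by 0.61 with I-BET151. Of 20 germline genes that the complex is known to silence, 6 had a row. With JQ1 (median 0.07) 0 of them were called by edgeR, 0 had an unadjusted p under 0.05 and 0 were called by DESeq2. With I-BET151, 1 was called higher and 4 lower (median -0.64), among them Zcwpw1, which fell by 1.02. The gene that rose, Ddx4, was no longer called without control replicate 3, without I-BET151 replicate 1 or with library totals. With ITF2357, 2 were called lower (median -0.06). Calls in either direction covered 24.8%, 63.1% and 54.0% of all genes with JQ1, I-BET151 and ITF2357. Zcwpw1 fell by 0.41, and the other, Stag3, stood at 0.634 CPM beside 1.117 in control. Only 1 was called without control replicate 2 or 3 or ITF2357 replicate 2 or 3.

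With library totals as the scaling, the median over the whole table moved by -0.161 (log2) in I-BET151 against control, by 0.154 in JQ1 against I-BET151 and by 0.135 in ITF2357 against I-BET151. The share of calls that were higher was then 32.97%, 68.9% and 65.5% in place of 48.4%, 50.7% and 50.8%. Upper quartile scaling put that share at 41.8% in place of 52.3% in ITF2357 against JQ1. Myc, Mycn, Mycl and Mxd4 kept their direction and call in all 6 comparisons under all 20 alternative settings.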

How the data were processed

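RNA was measured in 12 libraries, 4 groups of 3. Per the labels' protocols, total RNA was extracted with TRIzol and a miRNeasy kit, and KAPA RNA HyperPrep libraries were read as paired ends on a NovaSeq instrument. The submitters' processing notes name build mm10 and the tools edgeR 3.38.4, featureCounts, Subread 2.0.1, STAR 2.7.2a and bcl2fastq. The authors deposited raw counts per gene and library. The deposited table also holds log2 CPM, log2 RPKM and log2 fold changes from the authors, beside p-values and false discovery rates that the authors deposited. The sources used here give no annotation release, RNA selection, strand setting or rule for keeping genes. The lowest total of a gene was 51 counts.

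Counts were fitted in R 4.3.3 with edgeR 4.0.16 (quasi-likelihood test, TMM factors, all 12 libraries, no covariates, Benjamini-Hochberg over 17340 genes). The filter filterByExpr removed 0 genes, and the common biological coefficient of variation was 3.37%. The test was first run on simulated counts in which far fewer genes changed than were called here. That run does not bear on the choice of scaling. RPKM used the deposited length, which equals the exon union of GENCODE M21 for each of the 10 genes, and 99.0% of the gene identifiers matched that release. The authors' deposited table gave the same call in 30 of 30 values of the network genes against control, with log2 fold changes within 0.006.

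The alternatives were RLE, library totals and upper quartile scaling, no filter and a filter of 1 CPM in 3 libraries, the replicate block, a fit of only the groups compared, DESeq2 1.42.0, and leaving out each library. The network genes and the gene lists were chosen with earlier results of these data known. Named were the 10 genes, Pvt1, Txnip, the 5 genes nearest to Myc, and, for each list and compound, up to 3 called genes with the largest rise and up to 3 with the largest fall, of which examples are given. Cell type markers were 5 of the lists.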

Additional observations from a re-analysis of the deposited data

How the results depend on the processing

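Of 1200 values of the network genes recomputed under 20 settings, 1163 kept their direction and their side of the threshold, 21 lost the call, 7 gained it and 9 changed sign. With library totals the sign changed for Mlx (-0.0811) and Mga (-0.112) in I-BET151 against control, Max (-0.0114) in ITF2357 against control, Mga (0.0793) in JQ1 against I-BET151 and Mxi1 (0.0236) in ITF2357 against I-BET151, and with upper quartile scaling for Max (-0.0217) in ITF2357 against control; the cause was not tested. Leaving out 1 library at a time gave -0.103 to 0.0099 for Mlx and -0.025 to 0.0535 for Max in ITF2357 against control, and -0.0047 to 0.0329 for Mnt in JQ1 against I-BET151. No count of genes called, count of network genes called or ratio of the summed levels moved by over 1.5 times, while 66 of 2240 list counts did. Libraries with the same number did not deviate together (r from -0.0906 to 0.0174, 0 of 12 closest to their own number). With 3 libraries a group, this check cannot exclude that they were handled in parallel. With the replicate block 4141, 10865, 9247, 10361, 10764 and 8251 genes were called in JQ1, I-BET151 and ITF2357 against control, JQ1 against I-BET151, and ITF2357 against I-BET151 and JQ1, in place of 4308, 10945, 9356, 10480, 10896 and 8421. It took the number of network genes called from 9 to 8 in JQ1 against I-BET151, where Max gave an edgeR adjusted p = 0.0546, and left the number as it was in the other comparisons. Depth limits Mycl with I-BET151, Mycn, Mxd3 and Mlxipl.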
